A study of Homo sapiens with 11 samples.

Results

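The laminin and integrin genes are the count-table rows whose symbol names a laminin alpha, beta or gamma chain or an integrin alpha or beta chain. The rule found 33 genes among the 19990 in the table, of which 12 encode laminin chains, 15 integrin alpha chains and 6 integrin beta chains. The reference annotation (GENCODE release 29, GRCh38) holds 38 protein-coding genes of that kind, and ITGAL, ITGAM, ITGAX, ITGB2 and ITGB7 were not in the table analysed. The cells were cardiomyocytes made from passage 63 cells of the human iPS cell line WTC11, which is an established line. According to the labels, stem cells on Matrigel-coated plates were directed to the cardiac fate with the GSK3 inhibitor CHIR99021 followed by the Wnt secretion inhibitor IWP2, and wells were then kept in B27 medium with insulin. The Day 30 and Day 113 groups held 4 wells each and the Day 60 group 3, with poly(A) RNA sequenced from every well. All 11 wells came from 1 differentiation and differed by label in day alone, so p-values measure the spread between wells of that differentiation, and the day of culture and the day of collection cannot be told apart.

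Laminins are secreted trimers of an alpha, a beta and a gamma chain that polymerise into the sheet of the basement membrane, which wraps each cardiac muscle cell. Integrins are surface receptors made of an alpha and a beta chain, and they link matrix proteins outside the cell to the actin cytoskeleton. The alpha chain largely sets the ligand, so integrins fall into laminin-binding, collagen-binding and RGD-binding classes. RGD is a short motif in fibronectin, vitronectin and others. A further class holds leukocyte-type and other alpha chains. In heart muscle, laminin containing the LAMA2 chain and the integrin of ITGA7 with ITGB1 are the forms best known at the cell surface. Matrigel, the coating of the plates, is itself a laminin-rich matrix, and the RNA counts say nothing about that added protein.

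The stretch upstream of the start site is shown for 4 members on which the results below turn. They are ITGB6, with the deepest fall of any member, LAMA5, an abundant alpha chain that fell, LAMA2, the most abundant alpha chain, which passed in no pair of days, and ITGA11, with a late rise. RefSeq promoter entries on GRCh38.p14 matched 24 of the 33 members. Each stretch was limited to bases outside annotated exons and is written 5′ to 3′ on the gene's strand, with capitals marking matches, on either strand, to 1 of 8 motifs searched.
ITGB6, chr2:160200314-160200522, minus strand: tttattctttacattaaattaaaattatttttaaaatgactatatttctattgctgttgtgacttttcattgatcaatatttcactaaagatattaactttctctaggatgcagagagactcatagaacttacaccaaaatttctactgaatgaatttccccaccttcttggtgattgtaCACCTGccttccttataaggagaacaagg
LAMA5, chr20:62367313-62367562, minus strand: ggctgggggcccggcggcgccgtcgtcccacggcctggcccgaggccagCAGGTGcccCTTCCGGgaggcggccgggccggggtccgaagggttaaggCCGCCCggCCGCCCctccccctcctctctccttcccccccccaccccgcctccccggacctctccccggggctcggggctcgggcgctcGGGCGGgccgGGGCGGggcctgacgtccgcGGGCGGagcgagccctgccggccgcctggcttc
LAMA2, chr6:128882888-128883137, plus strand: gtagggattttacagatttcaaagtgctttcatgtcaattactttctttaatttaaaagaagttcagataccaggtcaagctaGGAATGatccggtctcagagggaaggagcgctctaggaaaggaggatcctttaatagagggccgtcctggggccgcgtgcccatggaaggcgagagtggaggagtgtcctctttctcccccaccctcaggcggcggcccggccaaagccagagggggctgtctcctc
ITGA11, chr15:68432164-68432413, minus strand: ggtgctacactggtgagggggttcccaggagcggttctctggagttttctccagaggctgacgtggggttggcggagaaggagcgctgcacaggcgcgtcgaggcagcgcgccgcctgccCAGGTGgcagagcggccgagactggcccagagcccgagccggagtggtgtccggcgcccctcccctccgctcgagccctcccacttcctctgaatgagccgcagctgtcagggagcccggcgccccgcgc

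The ITGB6 stretch is poor in G and C (30.1%) and holds no CpG, whereas 82.8% of the LAMA5 bases are G or C, with 32 CpGs. The LAMA2 and ITGA11 stretches lie between them, at 53.2% and 71.2% G and C, and the median over all promoters of the RefSeq table was 58.0%. In ITGB6 the capitals are a CAGGTG E-box, the motif of SNAI and ZEB factors, 70 bases before the RefSeq start. All distances here are counted to the RefSeq start, which in ITGB6 lies beyond the end of the stretch shown. The same E-box stands 130 bases before the start in ITGA11 and 201 bases before it in LAMA5, and 17.5% of all promoters hold one within 250 bases. LAMA5 also carries 5 GC boxes (GGGCGG, in 42.6% of all promoters) and a CCGGAAG ETS element 192 bases before the start (8.52% of all promoters). In LAMA2 the match is a GGAATG TEAD element 167 bases before the start, a motif found in 11.9% of all promoters. Of the other motifs searched, TGANTCA was in 6.57% of all promoters, AGATAA in 9.17%, TGTGGTT in 3.65% and TATAAA in 10.7%, with none in the stretches shown. These matches describe the letters only.

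Libraries held 24.1 to 34.5 M counts (M, 1000000). Levels below are counts per 1000000 counts (CPM) with TMM scaling, and a change is called where edgeR's quasi-likelihood test gave an adjusted p under 0.05 over all genes. All 10 cardiomyocyte markers, among them TNNT2, MYH7 and TTN, were present in every well, at a summed 32091 to 43947 CPM at Day 30, 38876 to 44316 at Day 60 and 33795 to 37687 at Day 113. Markers of other cells were present too and moved with day. The 9 endoderm and liver markers in the table summed to 441 to 1266 CPM at Day 30 but 45.1 to 55.6 at Day 60 and 26.3 to 46.1 at Day 113, and 8 of them were lower at Day 60. Of 11 epithelial markers, 10 were lower at Day 60 than at Day 30, and their sum went from 2211 to 3262 CPM to 1297 to 1483. All 10 endothelial markers were higher at Day 113, where they summed to 242 to 920 CPM against 50.0 to 82.6 at Day 60. Fibroblast and stromal markers summed to 3446 to 8092, 2125 to 3627 and 5485 to 13111 CPM on the 3 days, with 6 of 10 higher and 1 lower from Day 60 to Day 113. Over all genes, 5.91% were called lower from Day 30 to Day 60, and 12.9% higher and 11.1% lower from Day 60 to Day 113. In such bulk samples, fewer cells of a type and less RNA per cell cannot be told apart.

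Between Day 30 and Day 60 the laminin and integrin genes mostly fell where they changed. Of the 33 members, 12 (36.4%) were called, against 10.3% of all genes, with 10 lower (30.3%, against 5.91% of all genes) and 2, ITGA7 and ITGA10, higher (4.39% of all genes). From Day 60 to Day 113 the calls went the other way for integrins: 13 members (39.4%, against 24% of all genes) were called. Of these, 9 were higher, 8 of them integrins, and 4 lower (12.9% and 11.1% of all genes). Over the whole interval 17 members were called (51.5%, against 34.5% of all genes), with 7 members, all integrins, higher and 10 lower (17.3% and 17.2% of all genes). The wells of a pair of days did not overlap at all for 17 members in the first interval, 14 in the second and 13 over the whole (24.8%, 30.6% and 35.1% of all genes). No laminin was higher at Day 113 than at Day 30, and 6 of 12 were lower. The median log2 fold change of the 12 laminins was −0.59 in the first interval and −0.07 in the second, and that of the 21 integrins was −0.15 and 0.45, beside −0.01 and 0.00 over all genes. Called changes of at least 2-fold between Day 30 and Day 113 made up 30.3% of the members and 13.2% of all genes.

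**Figure D1:**
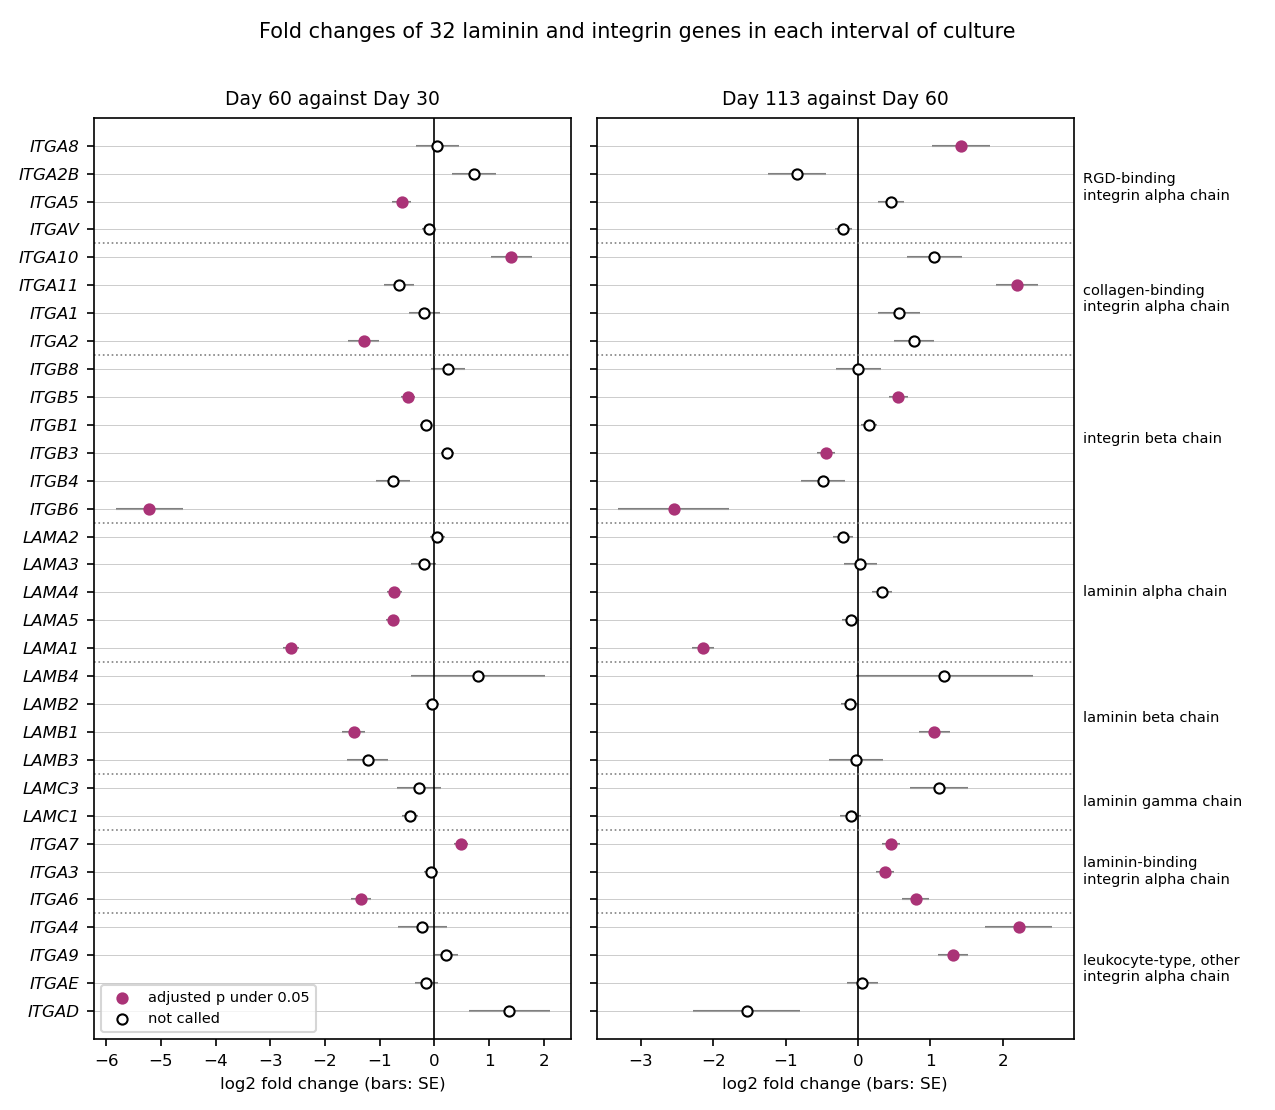
Log2 fold change (x axis, with SE as bars) of 32 members in both intervals, grouped by role on the y axis. Filled points passed an adjusted p of 0.05: in the left panel 9 of 11 lie below 0, and in the right panel 9 of 12 lie above it.

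Among the laminin alpha chains, LAMA1, the alpha chain of the embryonic laminin that Matrigel also contains, fell steeply in both intervals. LAMA1 (chr18:6941744-7117814, minus strand) stood at 97.7, 109, 102 and 82.3 CPM in the Day 30 wells, at 13.6, 18.5 and 15.4 at Day 60, and at 3.78, 3.37, 4.14 and 2.93 at Day 113. No well of one day overlapped with any well of another. The fall was 6.18-fold in the first interval (log2 −2.63 ± 0.15 SE, adjusted p = 7.4e-08) and 4.42-fold in the second (log2 −2.14 ± 0.15, adjusted p = 4.2e-07). Over the whole interval the level dropped 27.3-fold, with a log2 fold change of −4.77 ± 0.15 and an adjusted p of 6.3e-12. Overlaps with AP002409.1 and AP005062.1, on the opposite strand and not in the table analysed, amount to 11.1% of the LAMA1 exon bases.

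LAMA5, a chain widespread in epithelial and vascular basement membranes, was at 415, 475, 485 and 353 CPM at Day 30, 268, 268 and 228 at Day 60 and 259, 233, 238 and 218 at Day 113. Every Day 30 well was above every later well, and the Day 60 and Day 113 wells overlapped. The change was −0.76 ± 0.12 on the log2 scale in the first interval (adjusted p = 6.8e-04) and −0.10 in the second (adjusted p = 0.58). The first-interval falls of LAMA1 and LAMA5 went with those of the epithelial and the endoderm and liver markers, and the part of those cells in them was not tested.

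LAMA4, a chain known from vessels and from the heart muscle surface, was at 294, 267, 262 and 272 CPM at Day 30, 168, 176 and 149 at Day 60 and 272, 186, 198 and 171 at Day 113. Day 60 wells lay below all Day 30 wells, and 1 Day 113 well reached the Day 30 range. The first-interval change was −0.73 ± 0.14 (log2, adjusted p = 0.0027). From Day 30 to Day 113 it was −0.40 ± 0.12 (adjusted p = 0.018), which did not pass without Day 30 replicate 1 (adjusted p = 0.058) or Day 113 replicate 4 (0.062). From Day 60 to Day 113 it was not called (adjusted p = 0.089), and the wells of those days overlapped. The second interval's log2 change exceeded the first's by 1.06 ± 0.24 (adjusted p = 0.013), a difference that did not pass without Day 60 replicate 1 (0.064) or replicate 3 (0.096).

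LAMA2, the alpha chain of the muscle basement membrane whose loss causes a congenital muscular dystrophy, passed in no pair of days. Its levels were 560, 461, 446 and 555 CPM at Day 30, 589, 479 and 508 at Day 60 and 551, 357, 477 and 438 at Day 113, with overlapping days. The log2 fold change from Day 30 to Day 113 was −0.15 ± 0.13 (adjusted p = 0.41). LAMA3, an epithelial chain, was low on every day (7.71, 6.73 and 6.86 CPM on average) and was not called.

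Per kilobase of exon, the alpha chains at Day 30 were led by LAMA2 at 48.8 CPM per kb, followed by LAMA5 at 30.2, LAMA4 at 23.6 and LAMA1 at 6.16. LAMA2 made up 44.6 ± 4.58% (SD, n = 4) of the summed alpha-chain level at Day 30, 60.2 ± 3.25% (n = 3) at Day 60 and 55.5 ± 3.07% (n = 4) at Day 113. The ratio of LAMA2 to LAMA1 per length was 6.48 to 10.3 in the Day 30 wells, 39.8 to 66.3 at Day 60 and 162 to 229 at Day 113. On the log2 scale that is 2.98 ± 0.32, 5.67 ± 0.37 and 7.61 ± 0.25 (SD), and no wells of different days overlapped. These within-well ratios do not depend on library scaling and are given as a description.

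Of the beta chains, LAMB1 fell and rose again while LAMB2 passed in no pair of days. LAMB1 (chr7:107923799-108003255, minus strand), a widely expressed chain also present in early laminin, was at 357, 425, 380 and 346 CPM at Day 30, 136, 166 and 104 at Day 60 and 393, 242, 309 and 180 at Day 113. All Day 60 wells were below all others, and the Day 30 and Day 113 wells overlapped. LAMB1 dropped 2.79-fold in the first interval (log2 −1.48 ± 0.21, adjusted p = 4.1e-04) and rose 2.08-fold in the second (1.05 ± 0.21, adjusted p = 0.0020). The intervals differed by 2.53 ± 0.39 on the log2 scale (adjusted p = 0.0013). The 2 highest Day 113 wells for LAMB1, replicates 1 and 3, were also the highest for the fibroblast and stromal markers (13111 and 11346 CPM, against 6801 and 5485), and the part of those cells was not tested.

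LAMB2, the beta chain of mature muscle and synaptic laminin, was at 742, 708, 638 and 642 CPM at Day 30, 816, 592 and 580 at Day 60 and 681, 603, 604 and 555 at Day 113. These ranges overlapped, and the log2 fold change from Day 30 to Day 113 was −0.16 ± 0.11 (adjusted p = 0.31). Per length LAMB2 was the leading beta chain on each day, with 67.5 ± 2.42%, 84.6 ± 3.64% and 72.1 ± 4.89% (SD) of the summed level. The LAMB2 to LAMB1 ratio per length was 1.97 to 2.46 at Day 30, 4.22 to 7.10 at Day 60 and 2.06 to 3.65 at Day 113, so that Day 60 stood above both other days in every well.

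LAMB3, a chain of epithelial laminin-332, was at 5.50, 12.3, 6.78 and 4.78 CPM at Day 30, 3.00, 2.58 and 3.88 at Day 60 and 2.11, 5.14, 2.77 and 2.41 at Day 113. Its log2 fold change from Day 30 to Day 113 was −1.25 ± 0.34 (adjusted p = 0.0099), and Day 30 replicate 2 was the highest well. Without that well the value was −0.87 (adjusted p = 0.058). LAMB3 was called in neither single interval, although every Day 60 well (2.58 to 3.88 CPM) lay below every Day 30 well (4.78 to 12.3 CPM). Most epithelial markers were called lower at Day 60. The part of epithelial cells in the LAMB3 fall was not tested. LAMB4 averaged 0.165, 0.289 and 0.666 CPM, with 49 counts at most in a well, and was not called.

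**Figure D2:**
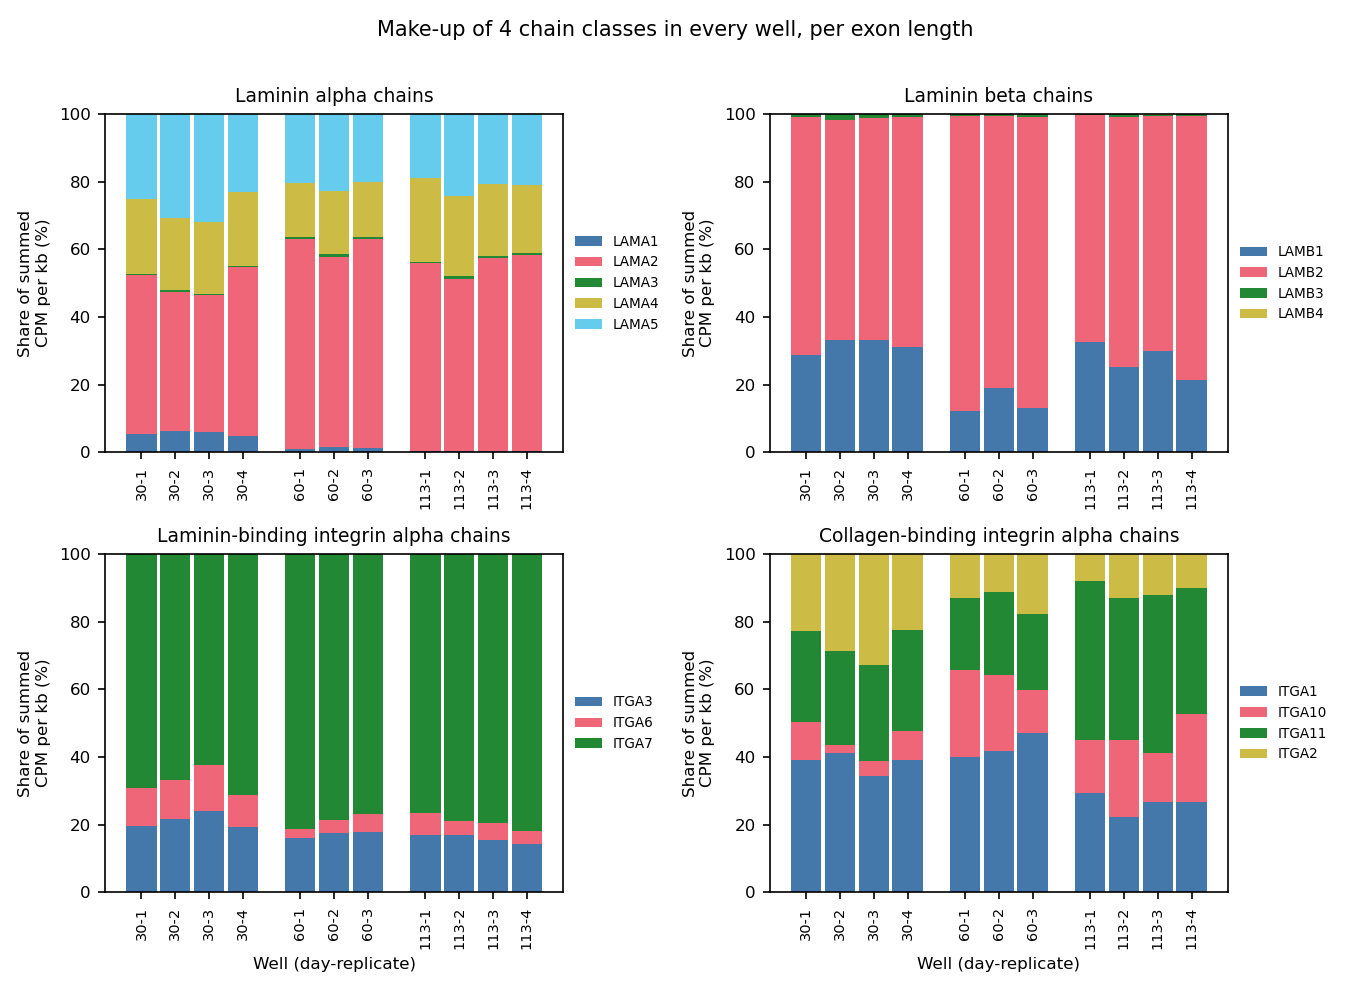
Share of each gene (y axis, percent) in the summed CPM per kb of its class, for each of the 11 wells (x axis, day and replicate). Dark blue LAMA1 shrinks from 5.64% of the laminin alpha chains at Day 30 to 0.285% at Day 113, LAMB2 takes its largest share at Day 60, and ITGA7 holds about the same share of the laminin-binding integrins at Day 60 (79.0%) and Day 113 (79.3%).

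The gamma chains were led by LAMC1, the chain of most laminins outside epithelia, which fell moderately. It was at 875, 919, 855 and 820 CPM at Day 30, 738, 589 and 592 at Day 60 and 761, 464, 633 and 525 at Day 113. All Day 30 wells were above all later wells. The log2 fold change was −0.44 in the first interval (adjusted p = 0.067), −0.10 in the second and −0.54 ± 0.13 over the whole interval (adjusted p = 0.0048). Per length LAMC1 was the leading gamma chain, at 103, 76.1 and 70.9 CPM per kb on the 3 days.

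LAMC3, a chain known from nerve and retina, averaged 4.31, 3.55 and 7.71 CPM, and Day 113 replicate 1 at 14.9 CPM stood above the other 3 Day 113 wells (3.26 to 6.99). The second-interval log2 change was 1.12 ± 0.40 (adjusted p = 0.054).

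**Figure D3:**
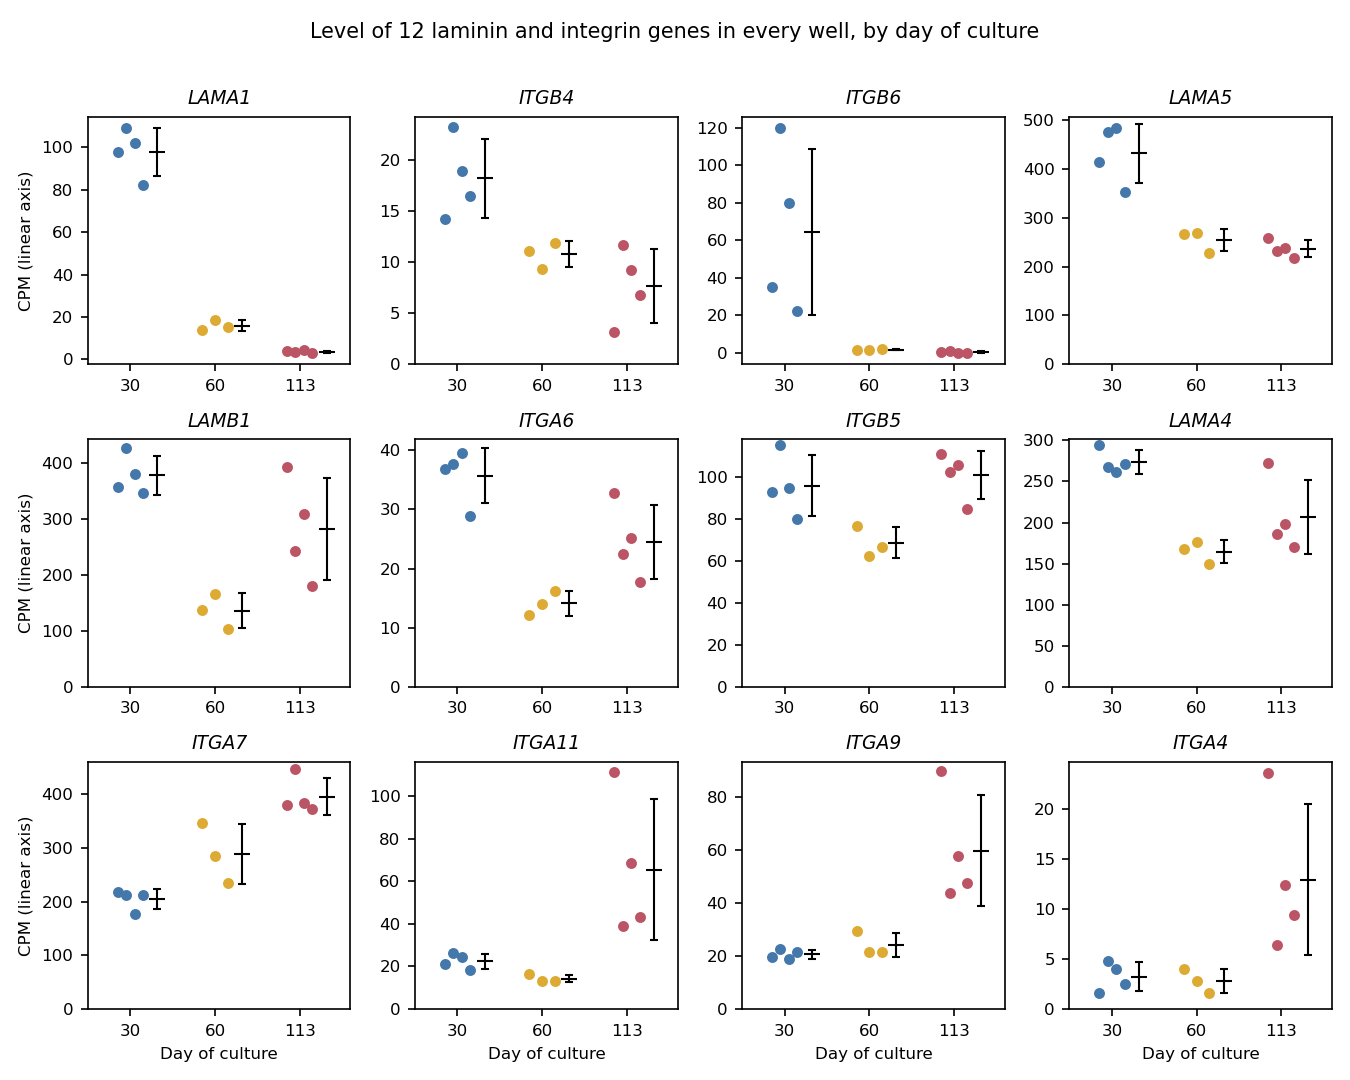
CPM (y axis, linear, a separate scale for each gene) of 12 members in each well by day of culture (x axis), with the mean and SD beside the points. The top row shows 4 members that fell, the middle row 4 that were lowest at Day 60, and the bottom row 4 that were highest at Day 113, where replicate 1 is the top well for ITGA11, ITGA9 and ITGA4.

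The laminin-binding integrins moved apart. ITGA7, the muscle form that pairs with ITGB1, rose in both intervals, while ITGA6, the form of epithelia and stem cells, fell and partly returned. ITGA7 (chr12:55684568-55716043, minus strand) was at 218, 212, 177 and 213 CPM at Day 30, 345, 285 and 235 at Day 60 and 380, 446, 383 and 371 at Day 113. Each day's wells were clear of those of the other days. From Day 30 to Day 113 ITGA7 rose 1.93-fold (log2 0.95 ± 0.12, adjusted p = 1.5e-05). The steps were 0.49 ± 0.12 (adjusted p = 0.018) and 0.45 ± 0.13 (adjusted p = 0.015). The first did not pass without Day 30 replicate 3 (adjusted p = 0.064) or Day 60 replicate 1 (0.102), nor the second without Day 60 replicate 3 (0.1004). Of the 10 cardiomyocyte markers, 2 were higher and 2 lower at Day 113 than at Day 30 (17.3% and 17.2% of all genes). The part of cardiomyocyte content in the ITGA7 rise was not tested.

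ITGA6 (chr2:172427354-172506282, plus strand) was at 36.9, 37.7, 39.6 and 28.9 CPM at Day 30, 12.1, 14.0 and 16.3 at Day 60 and 32.7, 22.4, 25.2 and 17.8 at Day 113. The Day 60 wells were the lowest without overlap, and the Day 30 and Day 113 ranges overlapped. ITGA6 fell by 1.34 ± 0.19 on the log2 scale in the first interval (adjusted p = 3.5e-04) and rose by 0.80 ± 0.19 in the second (adjusted p = 0.0059), a difference between intervals of 2.14 ± 0.34 (adjusted p = 0.0016). Over the whole interval the change was −0.54 ± 0.17 (adjusted p = 0.020), which did not pass without Day 30 replicate 1 (0.0503), 2 (0.056) or 3 (0.0605) or Day 113 replicate 4 (0.061). An antisense gene in the table, ITGA6-AS1, shares a small part of the exons, and whether counting used strand is not given in the sources used here.

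ITGA3, a receptor for laminin-332 and laminin-511, was at 94.6, 106, 105 and 88.0 CPM at Day 30, 104, 96.7 and 83.5 at Day 60 and 129, 148, 114 and 99.8 at Day 113. The Day 113 wells overlapped with those of both other days. The calls from Day 60 to Day 113 (0.37 ± 0.13, adjusted p = 0.046) and from Day 30 to Day 113 (0.32 ± 0.12, adjusted p = 0.048) lay at the threshold. They were lost in 13 and 10 of 20 alternatives, with adjusted p of up to 0.19 and 0.13. Leaving out any 1 of 10 wells, all but Day 113 replicate 4, ended the first of these calls. The second ended without any Day 30 well, Day 60 replicate 2, or Day 113 replicate 1, 2 or 3.

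Per length ITGA7 made up 67.4 ± 3.86% of the laminin-binding alpha chains at Day 30, 79.0 ± 2.16% at Day 60 and 79.3 ± 2.16% at Day 113 (SD). The ITGA7 to ITGA6 ratio per length ran from 4.60 to 7.55 at Day 30, from 14.8 to 29.3 at Day 60 and from 11.9 to 21.4 at Day 113. Both later days stood above Day 30 in every well and overlapped with each other.

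Of the collagen-binding integrins, ITGA11 and ITGA10 were highest at Day 113, and ITGA11 headed the class per exon length on that day. ITGA11 (chr15:68296533-68432162, minus strand), a collagen receptor typical of fibroblasts, was at 21.2, 26.1, 24.3 and 18.2 CPM at Day 30, 16.4, 13.2 and 13.3 at Day 60 and 111, 38.8, 68.7 and 43.3 at Day 113. All Day 113 wells were above all earlier wells, with replicates 1 and 3 the highest. ITGA11 rose 4.58-fold from Day 60 to Day 113 (log2 2.19 ± 0.29, adjusted p = 9.0e-05) and 2.92-fold from Day 30 (1.55 ± 0.26, adjusted p = 2.3e-04). The second interval exceeded the first by 2.84 ± 0.53 (adjusted p = 0.0038).

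ITGA10, a collagen receptor of cartilage and other connective tissue, was at 5.08, 1.40, 2.07 and 3.02 CPM at Day 30, 11.5, 7.11 and 4.38 at Day 60 and 21.5, 12.2, 12.3 and 17.7 at Day 113. The Day 113 wells were above all others, and the earlier days overlapped in 1 well. The rise from Day 30 to Day 113 was 5.52-fold (log2 2.46 ± 0.37, adjusted p = 8.9e-05). The first-interval call (1.41 ± 0.38, adjusted p = 0.026) was lost with limma-voom and without Day 30 replicate 2 (0.071), 3 (0.081) or 4 (0.051) or Day 60 replicate 1 (0.16) or 2 (0.052).

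ITGA2, a collagen and laminin receptor of epithelia and platelets, was at 13.1, 19.6, 20.3 and 9.93 CPM at Day 30, 7.21, 4.39 and 7.67 at Day 60 and 13.8, 8.74, 12.9 and 8.505 at Day 113. Day 60 was the lowest day without overlap. The first-interval change was −1.29 ± 0.28 (log2, adjusted p = 0.0076), and the intervals differed by 2.06 ± 0.51 (adjusted p = 0.019), a difference not past the threshold without Day 60 replicate 1 (0.066) or 2 (0.091). ITGA1, a collagen and laminin receptor common in stromal and smooth muscle cells, was at 52.8, 66.05, 50.1 and 40.4 CPM at Day 30, 52.6, 38.4 and 47.5 at Day 60 and 118, 35.3, 66.6 and 53.3 at Day 113. Its Day 113 wells spanned both earlier days, and the second-interval change of 0.57 ± 0.29 did not pass (adjusted p = 0.17).

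ITGA1 led this class per length at Day 30 and Day 60, with 38.4% and 42.9% of its summed level, and ITGA11 led at Day 113 with 43.3 ± 4.73% (SD, n = 4). That Day 113 lead rests on the exon lengths, 18.6 kb for ITGA1 and 10.9 kb for ITGA11. In undivided CPM, the Day 113 wells of ITGA1 and ITGA11 overlapped. The summed level of the 4 genes was 5.59 to 8.67 CPM per kb at Day 30, 4.96 to 7.07 at Day 60 and 8.51 to 21.7 at Day 113.

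Of the RGD-binding alpha chains, ITGAV dominated throughout and ITGA8 rose late. ITGAV, the partner of several beta chains in receptors for vitronectin and latent TGF-beta, was at 764, 755, 784 and 821 CPM at Day 30, 782, 656 and 743 at Day 60 and 619, 500, 694 and 713 at Day 113. The Day 113 wells were all below the Day 30 wells, and the change from Day 30 to Day 113 was −0.31 ± 0.11 (log2, adjusted p = 0.040). That call was lost in 10 of 20 alternatives (adjusted p of up to 0.094), among them leaving out any Day 30 well, Day 60 replicate 1 or 3, or Day 113 replicate 1 or 2. Per length ITGAV made up 86.2%, 89.3% and 83.5% of its class.

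ITGA5, the fibronectin receptor, was at 109, 116, 105 and 97.05 CPM at Day 30, 73.5, 67.8 and 69.7 at Day 60 and 144, 87.2, 82.6 and 70.0 at Day 113. Day 60 lay below Day 30 in every well, and Day 113 spread over both. The first-interval change of −0.60 ± 0.18 (adjusted p = 0.045) was lost in 12 of 20 alternatives (adjusted p of up to 0.15), including the loss of any Day 30 or Day 60 well or of Day 113 replicate 3. The ITGA7 to ITGA5 ratio per length was 2.02 to 2.61 at Day 30, 4.01 to 5.59 at Day 60 and 3.13 to 6.31 at Day 113.

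ITGA8, a receptor of smooth muscle and stromal cells, was at 6.30, 7.44, 7.11 and 2.47 CPM at Day 30, 9.03, 3.35 and 5.74 at Day 60 and 26.2, 11.3, 17.1 and 10.3 at Day 113. All Day 113 wells were the highest. The rise from Day 30 was 1.48 ± 0.37 (log2, adjusted p = 0.0050) and from Day 60 1.43 ± 0.40 (adjusted p = 0.017), the latter not past the threshold without Day 60 replicate 2 (0.077) or 3 (0.064). The 7 smooth muscle and pericyte markers in the table summed to 833 to 1031 CPM at Day 30, 807 to 956 at Day 60 and 1006 to 1581 at Day 113. The sum was highest in Day 113 replicates 1 and 3. Of the 7, 3 were higher and 0 lower from Day 60 to Day 113 (12.9% and 11.1% of all genes). The part of those cells in the ITGA8 rise was not tested. ITGA2B, the platelet chain, averaged 1.84, 3.04 and 1.70 CPM and was not called.

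In the class of leukocyte-type and other alpha chains, ITGA9 and ITGA4 rose between Day 60 and Day 113 and the others did not pass. ITGA9 (chr3:37452115-37823514, plus strand), a receptor for tenascin-C and osteopontin, was at 19.6, 22.6, 18.8 and 21.5 CPM at Day 30, 29.3, 21.5 and 21.4 at Day 60 and 89.7, 43.7, 57.6 and 47.6 at Day 113. The Day 113 wells did not overlap with earlier wells. The second-interval rise was 2.48-fold (log2 1.31 ± 0.21, adjusted p = 3.9e-04), and that from Day 30 was 2.89-fold (1.53 ± 0.19, adjusted p = 1.7e-05). ITGA9-AS1, an antisense gene in the table, covers 6.46% of its exons.

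ITGA4, a receptor for VCAM1 and fibronectin, was at 1.57, 4.80, 4.05 and 2.51 CPM at Day 30, 4.02, 2.76 and 1.58 at Day 60 and 23.6, 6.37, 12.4 and 9.39 at Day 113. Every Day 113 well was above every earlier well. ITGA4 rose 4.65-fold in the second interval (log2 2.22 ± 0.46, adjusted p = 0.0028) and by 2.00 ± 0.41 from Day 30 (adjusted p = 0.0014). ITGAE averaged 8.84, 7.97 and 8.30 CPM and ITGAD 0.619, 1.61 and 0.553. Neither was called. Of 10 leukocyte and platelet markers, 2 were in the table, at a summed 1.10 to 4.05 CPM over all wells.

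The late risers ITGA11, ITGA9, ITGA4 and ITGA8 were each highest in Day 113 replicate 1 and next highest in replicate 3. ITGA10 was highest in replicate 1 (21.5 CPM) but next highest in replicate 4 (17.7 CPM). Replicate 1 also had the highest sums of the endothelial (920 CPM) and of the fibroblast and stromal markers (13111 CPM), and replicate 3 the next highest of both (458 and 11346 CPM). Replicates 2 and 4 had 407 and 242 CPM of endothelial and 6801 and 5485 CPM of stromal markers. Of these 2 wells, ITGA11, ITGA9, ITGA4 and ITGA10 were higher in replicate 4 and ITGA8 in replicate 2. The part of those cells in the late rises was not tested.

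**Figure D4:**
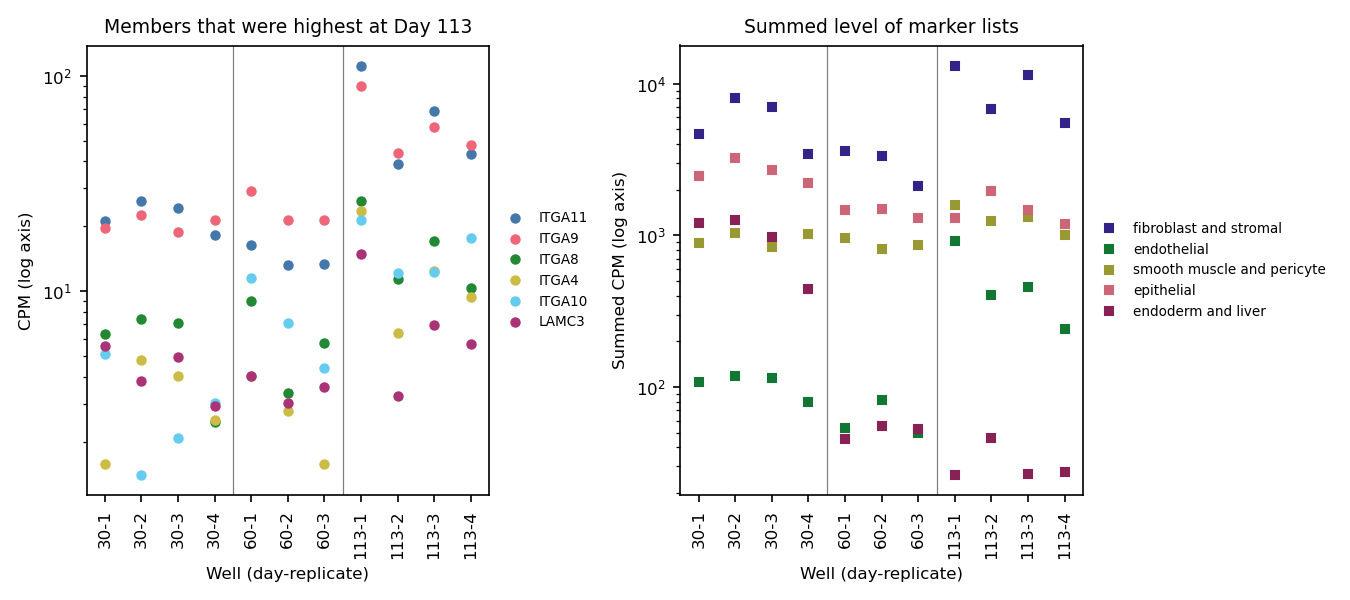
Left, CPM (log axis) of 6 members highest on average at Day 113, in every well (x axis, day and replicate). Right, summed CPM (log axis) of 5 marker lists in the same wells. The endothelial and the fibroblast and stromal sums peak in Day 113 replicate 1, as do all 6 members of the left panel.

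Among the beta chains, ITGB1 led and passed in no pair of days, while ITGB6 and ITGB4 fell. ITGB1, the common partner of laminin- and collagen-binding alpha chains, was at 784, 891, 751 and 823 CPM at Day 30, 727, 657 and 818 at Day 60 and 918, 745, 856 and 743 at Day 113. The 3 ranges overlapped. Per length it held 74.9%, 80.4% and 82.1% of the summed beta-chain level, at 135, 122 and 136 CPM per kb.

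ITGB6 (chr2:160099666-160200313, minus strand), which forms with ITGAV an epithelial receptor that activates latent TGF-beta, was at 35.2, 120, 79.8 and 22.5 CPM at Day 30, 1.72, 1.25 and 2.18 at Day 60 and 0.202, 0.900, 0.114 and 0 at Day 113. In counts, the Day 113 wells held 7, 24, 4 and 0 reads, and a count of 0 allows up to 3. No wells of different days overlapped. The first-interval fall was 37.1-fold (log2 −5.21 ± 0.61, adjusted p = 7.0e-05), and that over the whole interval was −7.76 ± 0.66 (adjusted p = 3.8e-07). Day 113 replicate 2 held most of the remaining reads, and without it the whole-interval value was −9.07. The second-interval change of −2.55 ± 0.76 (adjusted p = 0.024) was −3.86 without that well. The call was lost in 8 of 20 alternatives, with adjusted p of up to 0.42. Among these were robust dispersions, limma-voom and the 2 days alone. The others left out Day 60 replicate 1 (0.057) or 3 (0.085) or Day 113 replicate 1 (0.052), 3 (0.069) or 4 (0.054). AC092153.1, an annotated gene on the same strand that was not in the table analysed, shares 20.6% of the ITGB6 exon bases.

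ITGB4, the hemidesmosome chain that pairs with ITGA6, was at 14.2, 23.2, 18.9 and 16.4 CPM at Day 30, 11.04, 9.36 and 11.9 at Day 60 and 3.18, 11.6, 9.19 and 6.74 at Day 113. Day 30 was the highest day without overlap, and the change to Day 113 was −1.25 ± 0.29 (log2, adjusted p = 0.0030). ITGB4 was called in neither single interval, although every Day 60 well (9.36 to 11.9 CPM) lay below every Day 30 well (14.2 to 23.2 CPM). ITGB6 and most epithelial markers were called lower at Day 60. The part of epithelial cells in the ITGB6 and ITGB4 falls was not tested. CDH1, an epithelial adhesion gene and itself an integrin ligand, went from 69.2 ± 26.3 CPM (SD, n = 4) at Day 30 to 7.68 ± 1.49 (n = 3) and 4.75 ± 5.46 (n = 4).

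ITGB5, a vitronectin receptor chain that pairs with ITGAV, was at 93.1, 116, 95.2 and 80.3 CPM at Day 30, 77.0, 62.5 and 66.9 at Day 60 and 111, 103, 106 and 84.9 at Day 113. Day 60 was the lowest day in every well. It rose in the second interval by 0.56 ± 0.13 (log2, adjusted p = 0.0056). The first-interval change was −0.48 ± 0.13 (adjusted p = 0.025), lost without Day 30 replicate 2 (0.11) or 3 (0.056) or Day 60 replicate 2 (0.103) or 3 (0.11). The intervals differed by 1.04 ± 0.23 (adjusted p = 0.012), but not past the threshold without Day 60 replicate 2 (0.062) or 3 (0.071).

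ITGB3, which pairs with ITGAV and ITGA2B, was at 70.2, 48.7, 59.7 and 68.3 CPM at Day 30, 71.6, 70.3 and 76.8 at Day 60 and 51.9, 46.8, 59.8 and 55.7 at Day 113. Day 60 was the highest day, and the change to Day 113 was −0.45 ± 0.12 (log2, adjusted p = 0.016), not past the threshold without Day 60 replicate 3 (0.062). Of the ITGB3 exon bases, 51.6% also belong to AC068234.1, an annotated gene on the same strand that was not in the table analysed. ITGB8, another partner of ITGAV, averaged 6.32, 7.50 and 7.53 CPM and was not called.

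ITGA6, ITGB5 and LAMB1 passed in both intervals with opposite directions, lower at Day 60 and higher again at Day 113. Of the 33 members, 7, among them ITGA2, ITGA6, ITGA11, ITGB5, LAMA4 and LAMB1, passed the test of the difference between intervals (21.2%, against 9.34% of all genes). All 7 differences were above 0 (4.97% of all genes), so that the later change was the more positive.

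Among the other basement membrane genes, calls in the first interval and from Day 30 to Day 113 were mostly lower. Of 16, 0 were higher and 6 lower at Day 60 than at Day 30 (4.39% and 5.91% of all genes). From Day 60 to Day 113, 3 were higher and 3 lower (12.9% and 11.1% of all genes). From Day 30 to Day 113, 1 was higher and 8 lower (17.3% and 17.2% of all genes). The exception was COL15A1, a collagen of the muscle and vessel basement membrane, at 3.84 ± 1.94, 7.72 ± 2.76 and 97.3 ± 44.9 CPM (SD) on the 3 days (log2 4.67 ± 0.40 from Day 30 to Day 113, adjusted p = 3.8e-07). SMOC2, a matricellular protein, changed by −2.02 ± 0.30 (adjusted p = 1.0e-04). The collagen IV chains COL4A4 and COL4A3 changed by −1.81 and −1.64 over the same interval, from 8.42 and 3.95 CPM at Day 30.

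The 16 non-integrin laminin receptors and their glycosylation genes gave 3 higher and 1 lower in the first interval (4.39% and 5.91% of all genes). They gave 3 and 2 in the second (12.9% and 11.1% of all genes), and 4 and 3 over the whole (17.3% and 17.2%). DAG1, which encodes dystroglycan, the main laminin receptor of the dystrophin complex, averaged 338, 269 and 305 CPM and was not called. SGCD, a sarcoglycan of the same complex, rose from 0.732 ± 0.513 CPM at Day 30 to 3.40 ± 0.765 and 19.5 ± 7.33 (log2 4.71 ± 0.43 from Day 30 to Day 113, adjusted p = 7.9e-07). The syndecans SDC1 and SDC4 changed by −1.18 and −0.75 on the log2 scale.

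Calls among the 23 integrin ligands other than laminins were mostly lower in the first interval and higher in the second. In the first interval 1 was higher and 12 lower (4.39% and 5.91% of all genes). In the second 13 were higher and 1 lower (12.9% and 11.1% of all genes). Over the whole interval 7 were higher and 10 lower (17.3% and 17.2% of all genes). VTN, the gene of vitronectin, which liver cells secrete, went from 37.4 ± 14.3 CPM to 1.76 ± 0.954 and 2.53 ± 1.34 (log2 −3.89 ± 0.40 from Day 30 to Day 113, adjusted p = 2.4e-06). CDH1 changed by −3.89 ± 0.58 and SPP1, the gene of osteopontin, by −2.34 ± 0.64 (adjusted p = 9.9e-05 and 0.0099). COL6A3, a collagen VI chain of stromal cells, rose late, from 46.6 ± 28.2 CPM at Day 60 to 277 ± 169 at Day 113 (log2 2.57 ± 0.52, adjusted p = 0.0021). The list shares COL1A1, COL1A2, COL3A1 and POSTN with the stromal marker list, and the part of stromal cells in its late calls was not tested.

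Of the 38 integrin activators, adaptors and inhibitors, 4 were higher and 4 lower in the first interval (4.39% and 5.91% of all genes). In the second, 15 were higher and 2 lower (12.9% and 11.1% of all genes). Over the whole, 15 were higher and 9 lower (17.3% and 17.2% of all genes). ITGB1BP2, the gene of melusin, a striated-muscle protein that binds the ITGB1 tail, was at 40.7 ± 10.7, 42.7 ± 1.82 and 90.7 ± 20.1 CPM (log2 1.16 ± 0.17 from Day 30 to Day 113, adjusted p = 7.3e-05). TLN1, one of the talins that link beta chains to actin, rose by 0.52 ± 0.11 (adjusted p = 0.0020), from 308 to 440 CPM. TLN2, the talin of mature striated muscle, averaged 116, 98.2 and 94.2 CPM and was not called. TNS2, a tensin of focal adhesions, and RSU1, part of the complex around integrin-linked kinase, rose by 1.91 ± 0.14 and 1.32 ± 0.10 (adjusted p = 1.1e-07 and 7.0e-08), from 22.0 to 82.6 and from 57.5 to 143 CPM. PARVB, a parvin, and PTK2B, a kinase related to focal adhesion kinase, changed by −1.45 ± 0.28 and −1.33 ± 0.24 on the log2 scale.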

How the data were processed

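Whole-number read counts per gene symbol were deposited without normalization; reads were processed with STAR 2.5.3a and featureCounts 2.0.3 on hg38, per the submitters' processing notes. The annotation and strand setting are not given in the sources used here. The authors also deposited TPM values, but the gene length implied by count and TPM differed by more than 2-fold between libraries for 33 of 33 members (median largest fold 47.2), so TPM was not used further. All 19990 genes were fitted with edgeR 4.0.16 in R 4.3.3 (TMM, quasi-likelihood F-test, day as the only factor, 11 libraries; the minimum count of 10 removed 0 genes), with Benjamini-Hochberg adjustment over all genes within each contrast and a threshold of 0.05. Standard errors (SE) follow from each fitted log2 fold change and its F statistic. The fit was tested on simulated data. Levels per length used union exons of GENCODE release 29 on GRCh38; exons of 19 members overlap another gene, and for 8 that gene is in the table. Wells of a day differed by more than counting noise (chi-square per degree of freedom 11.7 to 88.7). Well values are given for members called in any pair of days with a mean CPM of at least 1, and for the leading member of each class. At most 4 genes of each pathway list are named, those with the largest change from Day 30 to Day 113 among called genes, plus ITGB1BP2, TLN1, TLN2 and DAG1. Some genes that these rules select are counted but not reported here. The members, lists and tests were chosen with earlier results of these data known. Alternatives were 2 other scalings, 2 filters, robust dispersions, DESeq2 1.42.0, limma-voom (limma 3.58.1), pairs of days alone, a replicate block, a threshold of 0.01 and each well left out.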

Additional observations from a re-analysis of the deposited data

Results flagged for a closer look

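In 2 of the 66 groups of wells tested, 1 well stood apart from the others by Dixon's gap test at the usual critical value for 4 wells, and chance flags about 1 in 20 such groups. Both concern ITGA7, the muscle laminin receptor chain. Day 113 replicate 2 was at 446 CPM against 371 to 383 in the other 3 wells (ratio 0.846). Day 30 replicate 3 was at 177 CPM against 212 to 218 (ratio 0.840).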

How the results depend on the processing

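The counts of members called, 12 from Day 30 to Day 60, 13 from Day 60 to Day 113, 17 from Day 30 to Day 113 and 7 for the difference between intervals, stayed within 1.5 times of these values in 35 comparisons under alternatives that kept every well and moved further in 4. The exceptions were the interval difference with DESeq2 (12) and both the interval difference (3) and the Day 60 to Day 113 count (7) at an adjusted p under 0.01, besides the block below. Leaving out 1 well at a time gave 8 to 16, 7 to 16, 13 to 17 and 4 to 11 calls. The lowest second-interval count came without Day 60 replicate 3, the lowest interval-difference count without Day 60 replicate 1, and the highest without Day 113 replicate 2. The cause was not tested. No called member reversed its direction under any alternative. Undivided by exon length, 57 ratios and shares moved by more than 1 SD and 54 did not, as follows from the division itself. At 24.1 to 34.5 M counts, depth limits LAMB4, ITGAD and ITGB6 at Day 113, with 0 to 67 counts a well.

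The labels do not say what a shared replicate number marks. Over 5000 genes, the correlation of deviations of same-numbered wells ran from −0.04 to 0.39 and exceeded 0.1 in 8 of 10 pairs, against 3 of 30 pairs with different numbers. Since the labels do not give the numbers as pairs, the main fit held no block, and its p-values treat all wells as independent. Most same-numbered wells deviated together, so that independence is uncertain. With a replicate block the counts were 15, 17, 18 and 13, and these held 12 of the 12, 12 of the 13, 17 of the 17 and 7 of the 7 calls made without it.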
